A study of Mus musculus with 6 samples.

Results

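The mitochondrial protein import machinery was followed as 35 genes, taken by symbol from the table of fragment counts, and all 35 were found, at 35 of its 51499 loci. The counts came from poly(A) RNA of immortalized mouse embryonic fibroblasts (MEFs), connective tissue cells of the embryo that carry the SV40 large T antigen. There were 3 independent cultures of WT cells, whose genotype was Yme1l fl/fl, a floxed and intact allele, and 3 of Yme1l-/- cells, which lack the inner membrane protease YME1L. The WT count columns carry the name WT2 and were matched to the WT cultures by genotype and replicate number, and whether WT2 means a further WT line is not given in the sources used here. Both genotypes came from the same kind of floxed MEFs after transduction with Cre recombinase, as expanded individual clones. The sources used here do not say whether the 3 cultures of a genotype came from different clones, so the difference between genotypes cannot be told apart from a difference between clones, and p-values measure only the spread between these cultures. The labels name no treatment, and no protein was measured in these libraries.

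Nearly all mitochondrial proteins are made in the cytosol and carried into the organelle. The TOM complex of the outer membrane receives them. The TIM23 complex and its ATP-driven motor take proteins with a cleavable presequence into the matrix, where peptidases remove the presequence. The TIM22 complex and the small TIM chaperones of the intermembrane space bring carrier proteins to the inner membrane, and the MIA pathway folds small cysteine-rich proteins by oxidation. YME1L is known to degrade a subunit of the TIM23 complex, TIMM17A, under stress.

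The import transcripts moved in both directions upon loss of YME1L. Of the 35 members, 14 rose and 10 fell, which makes 24 called, and 11 did not pass the test (quasi-likelihood test of edgeR, called where the p adjusted by Benjamini and Hochberg's method across the tested loci was under 0.05). The background was high, since 67.7% of the 13867 loci tested were called, 33.6% higher and 34.1% lower. The members' 24 of 35 was therefore close to the share of all loci. Tomm22, the central receptor of TOM, had the highest log2 fold change, 0.91 ± 0.05 (SE, n = 3 per genotype, as for every fold change below), but was at 0.31, below Dnajc19 (0.81), Gfer (0.61) and others, relative to the median of its chromosome. Dnajc15, a J protein of the import motor, fell the most, with -0.85 ± 0.11, and its paralogue Dnajc19 rose.

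The members' changes were small. None of the 35 reached a log2 fold change of 1 in either direction, which 18.1% of the tested loci did, and 7 of 35 reached 0.5, which 40.1% did. The median log2 fold change of the members was 0.02, beside 0.00 over all tested loci, and the median of the absolute values was 0.23 beside 0.38. Every member was well expressed, with 170 to 16491 fragments in each library, and all 35 passed the filter on low counts. Among the 9686 loci at or above the mean level of the lowest member, 6.81 CPM (counts scaled to library size), the median absolute log2 fold change was 0.32, and 73.4% were called, 35.5% higher and 38.0% lower. In 12 members the lowest Yme1l-/- library was above the highest WT library, where 35.9% of the tested loci were so ordered, and in 9 the order was the other way round, against 36.0% of loci. The genotypes thus did not overlap in 21 of 35 members and in 71.9% of the tested loci.

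**Figure D1:**
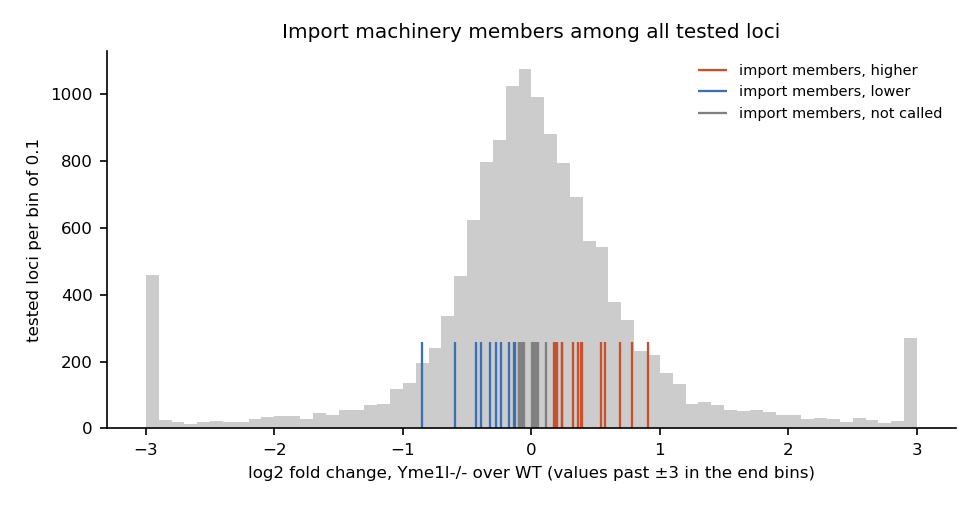
Histogram of the log2 fold change, Yme1l-/- over WT, of the 13867 tested loci in bins of 0.1 (grey bars, values past 3 in either direction gathered in the end bins), with the 35 import members as vertical lines coloured by call. The members lie between -0.85 and 0.91, inside the bulk of the histogram and on both sides of 0.

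The libraries held 33180867 to 34012520 counted fragments in WT and 34624075 to 49351107 in Yme1l-/- cells. The targeted gene, Yme1l1, stood at 188.7 ± 5.16 CPM in WT and 39.1 ± 1.34 CPM in Yme1l-/- cells (mean ± SD, n = 3), so 20.7% of its transcript level was left. Of 10 fibroblast markers, 9 were tested, of which 6 were lower and 2 higher in Yme1l-/- cells. Of all tested loci, 34.1% were lower and 33.6% higher. The markers' summed level went from 11070–11613 CPM to 6856–7334 CPM, with Thy1 near 0 in both genotypes. Summed endothelial, immune and muscle markers were low, at or under 3.93 CPM, but each sum was higher in every Yme1l-/- library, at 0.89–1.44 against 1.67–2.00 CPM, 1.68–1.87 against 3.49–3.93 CPM and 0.40–0.60 against 2.2–3.2 CPM in WT and Yme1l-/- cells. The 1 tested gene of each of these lists, Kdr (log2 fold change 0.72), Cd68 (1.04) and Des (2.6), was called higher, and Adgre1, Cd3e and Myog were at 0 in every library. The epithelial markers summed to 111–128 CPM in WT, nearly all from Krt19, and 2.68–3.31 CPM in Yme1l-/- cells. The neural ones summed to 22.5–27.4 CPM in WT and 6.23–8.30 CPM in Yme1l-/- cells. Nearly all of that came from Map2, the only neural marker tested, with means of 24.5 and 7.05 CPM. In bulk RNA, fewer cells of a kind and less RNA per cell cannot be told apart. The part of these shifts in the import results was not tested.

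Replicate 1 stood apart for the import genes. It was the highest WT library for 29 of 35 members (82.9%), where it was the highest for 33.7% of the tested loci, and the highest Yme1l-/- library for 28 of 35 (80.0%), against 39.1% of loci. Replicate 3 of Yme1l-/- cells was the highest for 0 members. Another fit, chosen after the data were seen, left out both replicate 1 libraries. Tomm20 was then called higher, Tomm70a, Timm23 and Timm17b were called lower, and Mipep was no longer called. How many of all tested loci changed call in that fit is not given here.

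The chromosome of a gene also moved with its value. The median log2 fold change of a chromosome's tested loci ran from -0.44 on chromosome 12 to 0.59 on chromosome 15. For 3 members that had been called lower, Timm17a, Timm8b and Timm9, the value turned slightly positive once these medians were removed, and with them removed 14 members were higher, 5 were lower, and the median of the 35 was 0.12. The background under that setting was 31.1% of loci higher and 31.7% lower. Genotype, clone and chromosome cannot be told apart in these 6 libraries.

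**Figure D2:**
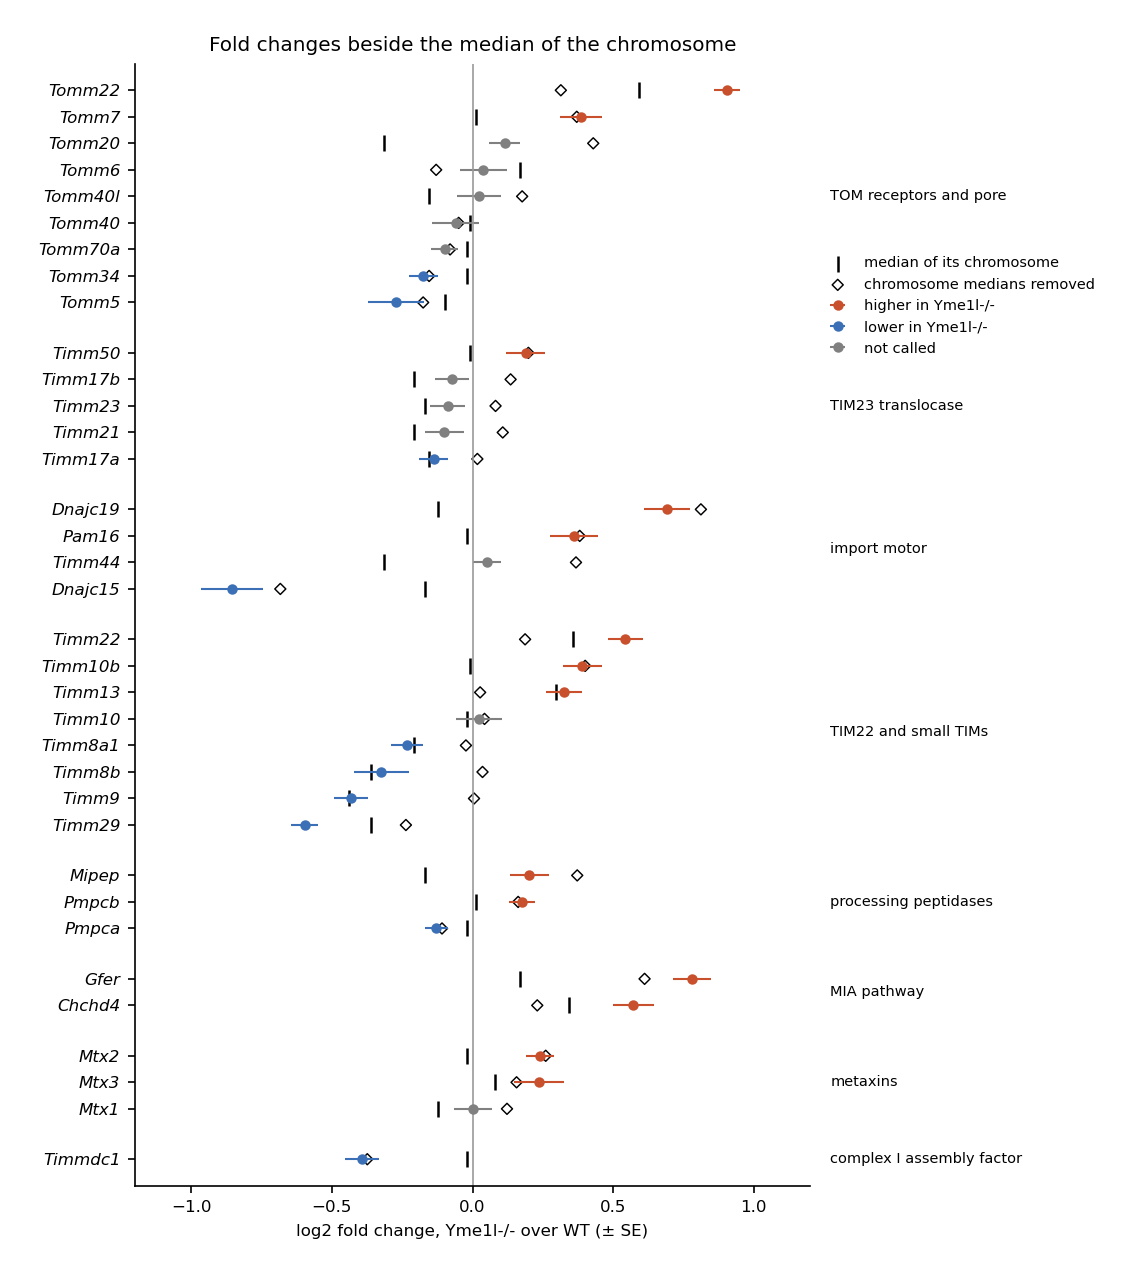
Log2 fold change of each import member, Yme1l-/- over WT, with its SE (filled circles and bars, red higher, blue lower, grey not called), the median of its chromosome (black ticks) and the value once the chromosome medians were removed (open diamonds). Tomm22 moves from 0.91 to 0.31 and Timm9 from -0.43 to 0.01, while Dnajc19 and Dnajc15 stay far apart.

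Of the 9 TOM members 2 rose, 2 fell and 5 were not called, beside 67.7% called among all tested loci, with a median log2 fold change of 0.02. With the chromosome medians removed 3 were higher and 1 lower, beside 31.1% and 31.7% of the tested loci. Tomm22 (ENSMUSG00000022427, chr15:79670861-79673400 in GRCm38) encodes the receptor that also holds the pores of the complex together. It stood at 129, 129.9 and 125 CPM in the WT libraries and 253, 235 and 232 CPM in the Yme1l-/- libraries. The lowest Yme1l-/- library was far above the highest WT library. This was a log2 fold change of 0.91 ± 0.05, or 1.87-fold (edgeR adjusted p = 1.9e-08). Its chromosome, 15, had the highest median of all, 0.59, and with the medians removed Tomm22 was still called, at 0.31 (edgeR adjusted p = 0.00012), under Tomm20 at 0.43 and Tomm7 at 0.37. Per length, Tomm22 went from 147 to 276 in the authors' combined FPKM, a length-scaled level with a single value for each genotype. It was the third highest of the 35 members in WT and the highest in Yme1l-/- cells.

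The bases before the start of Tomm22 are shown because they hold a sequence element that recurs among the members. It is the ETS-type motif CCGGAAG, the letters bound by factors such as GABP, which is known for promoters of mitochondrial genes. The sequence is from RefSeq (GRCm38.p6, chr15:79670618-79670860, plus strand), 5′ to 3′ on the gene's strand, with matches to the motif or its reverse complement in capitals. It ends where the annotated first exon begins.
Tomm22: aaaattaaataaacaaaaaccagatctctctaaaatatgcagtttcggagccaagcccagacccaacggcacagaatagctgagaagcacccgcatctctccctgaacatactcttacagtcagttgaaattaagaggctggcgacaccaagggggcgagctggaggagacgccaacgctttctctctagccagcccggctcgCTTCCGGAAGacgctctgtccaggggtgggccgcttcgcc
The run CTTCCGGAAG held the motif on both strands, starting at positions -47 and -44 from the RefSeq start. Another match in the searched window began at position 5, past the bases shown. Among the 32 members with a RefSeq promoter window (250 bases before the start to 50 after it), 14, or 43.8%, held the motif on either strand. The share was 9.93% of 27025 genes with such a window, and 20.2% of the 9400 of them that were tested here. The motif was found in 5 of 13 members that rose, 5 of 10 that fell and 4 of 9 not called, so members of both directions held it. In 13 of the 14 members at least 1 match began 60 or fewer bases before the start or after it.

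The other motifs, as searched here, were rarer. The YY1-type motif AAGATGGC was in 3 of 32 members (9.38%), Mtx1, Mtx3 and Timm50, against 3.19% of all genes and 5.39% of those tested. The palindromic NRF1 motif, the cAMP response element TGACGTCA and the C/EBP-ATF type motif TGATGNAA were in 0 of 32 windows, and in 1.07%, 2.03% and 4.51% of all genes and 2.36%, 3.65% and 2.64% of those tested. Both strands were searched for each motif. A match describes the letters of the window and was not tested as a binding site.

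The other TOM gene that rose was Tomm7, a small subunit that modulates assembly of the complex. Tomm7 was at 55.2, 54.4 and 47.8 CPM in the WT libraries and 75.8, 64.8 and 65.0 CPM in the Yme1l-/- libraries. The groups did not overlap, and the log2 fold change was 0.38 ± 0.07 (edgeR adjusted p = 0.00078). Chromosome 5, where it lies, had a median of 0.01.

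Both TOM genes that fell did so by little. Tomm5, another small subunit, had 54.6, 47.7 and 44.8 CPM in the WT libraries and 46.8, 37.4 and 37.9 CPM in the Yme1l-/- libraries. Its replicate 1 value in Yme1l-/- cells lay inside the WT range, and the log2 fold change was -0.27 ± 0.10 (edgeR adjusted p = 0.035). The call was lost under 7 of 14 alternatives, among them leaving out replicate 1 or 2 of WT or replicate 2 or 3 of Yme1l-/- cells, with log2 fold changes of -0.38 to -0.19 with 1 library left out. It was also lost, at -0.18, relative to chromosome 4, whose median was -0.10. Tomm34, a cytosolic cochaperone that keeps precursors unfolded, measured 41.1 to 44.6 CPM in WT and 37.1 to 39.2 CPM in Yme1l-/- cells. The ranges were separate, with a log2 fold change of -0.17 ± 0.05 (edgeR adjusted p = 0.011), and the call was lost with upper-quartile scaling, at -0.12.

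The receptors other than Tomm22 and the pore were not called. Tomm20, the receptor for presequences, stood at 181, 170.0 and 172 CPM in the WT libraries and 177, 205 and 184 CPM in the Yme1l-/- libraries, and the ranges overlapped (log2 fold change 0.11 ± 0.06, edgeR adjusted p = 0.096). Chromosome 8 had a median of -0.32, and relative to it Tomm20 was called higher, at 0.43. The authors' combined FPKM of Tomm20 was 136 in WT and 132 in Yme1l-/- cells, the other direction. With 1 library left out Tomm20 ran from 0.05, without replicate 2 of Yme1l-/- cells (edgeR adjusted p = 0.43), to 0.16, without replicate 1, where it was called higher, as it was with upper-quartile scaling (0.17). Without replicate 1 of Yme1l-/- cells Tomm70a was called lower, at -0.13. Tomm70a, the receptor for carrier proteins, had 338 to 353 CPM in WT and 307 to 340.3 CPM in Yme1l-/- cells (log2 fold change -0.10 ± 0.05, edgeR adjusted p = 0.086, from -0.13 to -0.06 with 1 library left out). A fit with the replicate number as a block also called Tomm70a lower, at -0.10 (edgeR adjusted p = 0.022). Tomm40, the beta-barrel pore, had 108 to 137 CPM in WT and 109 to 126 CPM in Yme1l-/- cells, and its paralogue Tomm40l had 26.6 to 30.1 CPM in WT and 26.9 to 32.4 CPM in Yme1l-/- cells. Tomm6, whose locus was merged with Gm21981 and Prickle4 in the assembly, had 102 to 115 CPM in WT and 101 to 126 CPM in Yme1l-/- cells. These last 3 had log2 fold changes between -0.06 and 0.04. Usp49, whose exons overlap those of Tomm6 on the other strand, had 0.46 ± 0.04. Nit2, which overlaps Tomm70a in the same way, had 0.23 ± 0.08. In all, 15 of the 35 members overlap exons of a gene on the other strand.

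**Figure D3:**
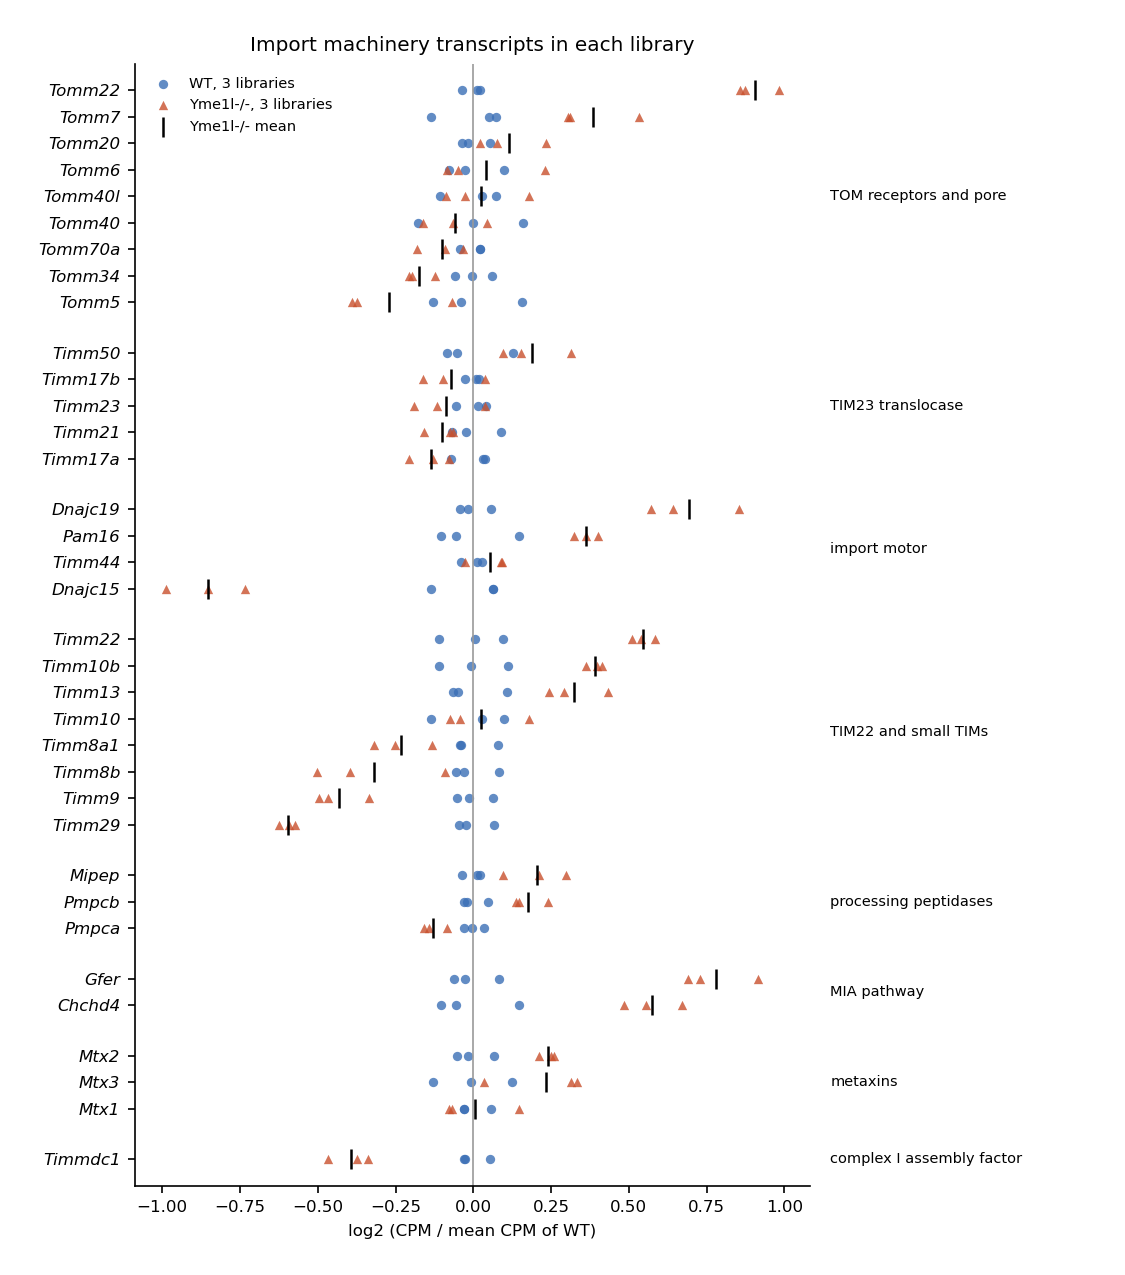
Level of each import member in each library as log2 of CPM over the mean CPM of WT, grouped by role, for 3 WT (circles) and 3 Yme1l-/- libraries (triangles), with the Yme1l-/- mean as a tick. Tomm22, Gfer, Dnajc19 and Chchd4 lie clear to the right of WT, Dnajc15 and Timm29 clear to the left, and most of the TOM and TIM23 groups lie around 0.

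Of the 5 members of the TIM23 translocase 1 rose, 1 fell and 3 were not called, beside the 67.7% of all tested loci that were called, and their summed level was 279.5 ± 11.3 CPM in WT and 278 ± 17.1 CPM in Yme1l-/- cells (mean ± SD, n = 3). Timm17a, whose protein is the known YME1L substrate, stood at 90.5, 90.1 and 83.9 CPM in the WT libraries and 83.6, 76.5 and 80.6 CPM in the Yme1l-/- libraries. Its Yme1l-/- libraries all lay below the WT ones, the nearest by under 1 CPM, and the log2 fold change was -0.14 ± 0.05 (edgeR adjusted p = 0.034). The call was lost under 6 of 14 alternatives, among them leaving out replicate 1 or 2 of WT or replicate 2 or 3 of Yme1l-/- cells (log2 fold changes of -0.17 to -0.10 with 1 library left out), and the value was 0.02 relative to its chromosome, whose median was -0.15. The authors' combined FPKM of Timm17a was 92.7 in both genotypes to 3 digits. Transcript levels say nothing of how much TIMM17A protein the cells held.

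Timm50, the receptor that takes precursors over from TOM, measured 94.6, 81.8 and 83.6 CPM in the WT libraries and 108, 92.5 and 96.4 CPM in the Yme1l-/- libraries. The WT replicate 1 library lay above the lowest Yme1l-/- library (log2 fold change 0.19 ± 0.07, edgeR adjusted p = 0.033), and the call was lost without replicate 2 or 3 of WT or replicate 1 of Yme1l-/- cells (log2 fold changes of 0.13 to 0.25 with 1 library left out). The channel gene Timm23 had 52.8 to 56.5 CPM in WT and 48.1 to 56.4 CPM in Yme1l-/- cells, with a log2 fold change of -0.09 ± 0.06 (edgeR adjusted p = 0.23), and it was called lower without replicate 1 of Yme1l-/- cells, at -0.15. Its near-identical copy Gm10171, 100% identical over 628 bases, held 819 to 1189 fragments in a library, so fragments of both may have been split. Timm17b had 32.1 to 33.1 CPM in WT and 29.2 to 33.6 CPM in Yme1l-/- cells, and Timm21, which links TIM23 to TOM and to the respiratory chain, had 16.2 to 18.1 CPM in WT and 15.2 to 16.2 CPM in Yme1l-/- cells. Neither was called, and with 1 library left out they ran from -0.13 to -0.03 and from -0.13 to -0.06 on the log2 scale. The 3 uncalled TIM23 genes lie on chromosomes with medians of -0.17 (14, Timm23) and -0.21 (X, Timm17b, and 18, Timm21), and relative to these they were at 0.08, 0.14 and 0.11, still not called.

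The import motor held the most divided pair. Of its 4 members Dnajc19 and Pam16 rose, Dnajc15 fell and Timm44 was not called, beside 67.7% called among all tested loci. DNAJC19 and DNAJC15 are related J proteins that stimulate the motor's mitochondrial Hsp70. Dnajc19 (ENSMUSG00000027679, chr3:34056020-34081321) stood at 15.0, 14.3 and 14.0 CPM in the WT libraries and 26.1, 21.4 and 22.5 CPM in the Yme1l-/- libraries. Every Yme1l-/- library was above every WT library, and the log2 fold change was 0.69 ± 0.08 (edgeR adjusted p = 1.7e-05). Relative to chromosome 3 it was 0.81.

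Dnajc15 (ENSMUSG00000022013, chr14:77820681-77875125) went the other way. It measured 7.98, 9.16 and 9.16 CPM in the WT libraries and 4.86, 5.28 and 4.42 CPM in the Yme1l-/- libraries, which left all Yme1l-/- libraries far under the WT range. The log2 fold change was -0.85 ± 0.11 (edgeR adjusted p = 3.5e-05), and -0.68 relative to chromosome 14. Both calls were kept under all 14 alternatives. Per length, in the authors' combined FPKM, Dnajc15 was 8.40 in WT and 5.14 in Yme1l-/- cells, and Dnajc19 28.2 and 46.4.

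The bases before the start of Dnajc19 are shown beside those of Tomm22, since this member rose without any of the 5 motifs searched in its window (RefSeq, GRCm38.p6, chr3:34081355-34081604, minus strand). No base is in capitals, as nothing matched.
Dnajc19: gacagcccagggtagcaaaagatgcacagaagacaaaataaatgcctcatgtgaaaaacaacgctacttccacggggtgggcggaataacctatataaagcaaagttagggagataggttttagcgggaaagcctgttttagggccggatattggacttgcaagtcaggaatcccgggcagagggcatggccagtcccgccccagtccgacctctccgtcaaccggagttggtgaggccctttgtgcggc
The window of Dnajc15 also held none of the 5 motifs. Their absence says only that these letters were not in the windows.

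Some fragments of Dnajc19 are uncertain. A pseudogene, Dnajc19-ps, was 99.1% identical over 351 bases and held 62 to 75 fragments in the WT and 157 to 181 in the Yme1l-/- libraries, with a log2 fold change of 0.93 ± 0.15. On the opposite strand, exons of Fxr1 overlap those of Dnajc19, and Fxr1 had 0.40 ± 0.04. The library kit keeps strand, and whether counting used it is not given in the sources used here.

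Pam16, an inhibitory partner of the J proteins, was at 12.4, 10.4 and 10.8 CPM in the WT libraries and 14.8, 14.4 and 14.0 CPM in the Yme1l-/- libraries. The ranges were separate, and the log2 fold change was 0.36 ± 0.09 (edgeR adjusted p = 0.0029). It overlaps exons of Glis2 on the other strand, which had -0.40 ± 0.05. Timm44, the scaffold that ties the motor to the channel, had 74.3 to 77.7 CPM in WT and 74.9 to 81.4 CPM in Yme1l-/- cells (log2 fold change 0.05 ± 0.05, edgeR adjusted p = 0.37), or 0.03 to 0.09 with 1 library left out. Relative to chromosome 8, with its median of -0.32, Timm44 was called higher, at 0.37.

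The TIM22 group was split. Of its 8 members 3 rose, 4 fell and Timm10 was not called, so 7 were called, and these 7 were also the ones whose libraries did not overlap, beside 67.7% called and 71.9% without overlap among all tested loci. Their summed level was 429.8 ± 23.3 CPM in WT and 415 ± 25.1 CPM in Yme1l-/- cells (mean ± SD, n = 3). Timm22, the channel for carrier proteins, stood at 27.5, 23.9 and 25.8 CPM in the WT libraries and 38.5, 37.4 and 36.7 CPM in the Yme1l-/- libraries. The groups were far apart, with a log2 fold change of 0.54 ± 0.06 (edgeR adjusted p = 1.2e-05), beside a median of 0.36 for chromosome 11, and with the medians removed it was still called, at 0.19.

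Timm29, a metazoan subunit of the same complex, moved against its channel. It stood at 74.5, 68.8 and 70.0 CPM in the WT libraries and 47.2, 47.8 and 46.1 CPM in the Yme1l-/- libraries. All Yme1l-/- libraries were clear below WT, and the log2 fold change was -0.60 ± 0.05 (edgeR adjusted p = 8.0e-07). Chromosome 9 had a median of -0.36, and relative to it Timm29 was still lower, at -0.24. Exons of Yipf2 overlap it on the other strand, and Yipf2 had -0.30 ± 0.11.

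The small TIM chaperones form hexamers that shield carrier proteins in the intermembrane space. Timm9, a partner of TIMM10 in the main hexamer, measured 37.1, 34.2 and 35.1 CPM in the WT libraries and 28.1, 25.7 and 25.2 CPM in the Yme1l-/- libraries. It fell without overlap (log2 fold change -0.43 ± 0.06, edgeR adjusted p = 7.3e-05), by as much as the median of chromosome 12, -0.44. Timm10 measured 32.9, 31.3 and 27.9 CPM in the WT libraries and 34.8, 29.2 and 29.8 CPM in the Yme1l-/- libraries, with overlapping ranges and a log2 fold change of 0.02 ± 0.08 (edgeR adjusted p = 0.82). Timm10b, the small TIM that docks the hexamer on TIM22, had 19.4, 16.6 and 17.8 CPM in the WT libraries and 23.9, 23.6 and 23.1 CPM in the Yme1l-/- libraries. It rose without overlap (log2 fold change 0.39 ± 0.07, edgeR adjusted p = 0.00038), with the limit that its locus was merged with Dnhd1 and Gm45799.

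Timm8a1, Timm8b and Timm13 belong to the second kind of hexamer. Timm13 was the member with the highest FPKM in WT, 199, and had 94.5 to 107 CPM in WT and 117 to 134 CPM in Yme1l-/- cells. It rose by 0.32 ± 0.06 on the log2 scale (edgeR adjusted p = 0.00081), near the 0.30 of chromosome 10. Timm8a1, the counterpart of the gene of a human deafness-dystonia syndrome, had 108 to 118 CPM in WT and 89.3 to 102 CPM in Yme1l-/- cells and a log2 fold change of -0.23 ± 0.06 (edgeR adjusted p = 0.0041), near the -0.21 of chromosome X. Timm8b had 37.2 to 40.9 CPM in WT and 27.3 to 36.3 CPM in Yme1l-/- cells and -0.32 ± 0.10 (edgeR adjusted p = 0.013), near the -0.36 of chromosome 9. None of these 3, nor Timm9, was called once the chromosome medians were removed, and Timm8b also lost its call without replicate 3 of Yme1l-/- cells, at -0.29.

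Both genes of the MIA pathway rose, as did 33.6% of all tested loci. Chchd4 encodes the oxidoreductase that traps and oxidizes cysteine-rich proteins, and Gfer the sulfhydryl oxidase that takes the electrons from it. Gfer (ENSMUSG00000040888, chr17:24693187-24696156) stood at 40.9, 37.9 and 37.0 CPM in the WT libraries and 72.8, 64.0 and 62.3 CPM in the Yme1l-/- libraries. No library overlapped, and the log2 fold change was 0.78 ± 0.07 (edgeR adjusted p = 1.3e-06), or 0.61 relative to chromosome 17. Chchd4 stood at 41.1, 35.7 and 34.5 CPM in the WT libraries and 59.1, 54.6 and 51.9 CPM in the Yme1l-/- libraries, also without overlap. Its log2 fold change was 0.57 ± 0.07 (edgeR adjusted p = 2.9e-05), beside a chromosome 6 median of 0.34, and with the medians removed it was still called, at 0.23. Together they summed to 82.0, 73.6 and 71.5 CPM in WT and 132, 119 and 114 CPM in Yme1l-/- cells, a ratio of 1.61, the highest of the role groups. Gfer shares 573 bases of 99.8% identity, on the opposite strand, with an exon of Dst, a much longer gene that had -0.04 ± 0.17 and was not called.

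Transcripts of MIA substrates and related twin-cysteine proteins were also read. Of 17, 7 rose, 5 fell and 5 were not called, with a median log2 fold change of 0.08. The 12 called made 70.6%, near the 67.7% of all tested loci. With the chromosome medians removed 7 were higher and 3 lower, and 8 of the 12 calls were kept in the same direction. Another pair of calls turned, Chchd3 from higher (0.18) to lower (-0.16) and Ndufb7 from lower (-0.19) to higher (0.13), and the other 2 were lost. Cox19, a copper factor of cytochrome c oxidase, had the highest value, 0.59 ± 0.07, and Coa6, another assembly factor, 0.47 ± 0.13 (edgeR adjusted p = 2.5e-05 and 0.0061). Chchd7 had the lowest, -1.69 ± 0.13, and Cmc1 followed with -0.40 ± 0.09 (edgeR adjusted p = 3.9e-07 and 0.0021). Relative to chromosome 9, whose median was -0.36, Cmc1 was at -0.04 and not called, and relative to chromosome 8 Coa6 was at 0.79. The change of Chchd7, from 12.6 to 3.91 CPM, was larger than that of any of the 35 members.

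Pmpca and Pmpcb encode the subunits of the enzyme that removes presequences, and moved in opposite directions. Pmpca had 231 to 241 CPM in WT and 212 to 222 CPM in Yme1l-/- cells, a log2 fold change of -0.13 ± 0.04 (edgeR adjusted p = 0.016). Pmpcb had 120.3 to 127 CPM in WT and 135 to 145 CPM in Yme1l-/- cells, a log2 fold change of 0.18 ± 0.05 (edgeR adjusted p = 0.0061). Mipep, the peptidase that takes a further stretch off some of these proteins, had 17.8 to 18.5 CPM in WT and 19.5 to 22.4 CPM in Yme1l-/- cells, a log2 fold change of 0.20 ± 0.07 (edgeR adjusted p = 0.022). None of the 3 overlapped between genotypes, as was so for 71.9% of the tested loci. The calls of Pmpca and Mipep were each lost under 4 of 14 alternatives, for Pmpca with upper-quartile scaling, at -0.070 (edgeR adjusted p = 0.16), and without replicate 1 of WT or replicate 2 or 3 of Yme1l-/- cells (log2 fold changes of -0.15 to -0.11 with 1 library left out), and for Mipep without replicate 2 of WT or replicate 1 or 2 of Yme1l-/- cells (log2 fold changes of 0.16 to 0.26 with 1 library left out). Relative to chromosome 14, whose median was -0.17, Mipep was called higher at 0.37.

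The metaxins are outer membrane proteins linked to the sorting machinery for beta-barrel proteins. Mtx2 had 50.4, 47.5 and 46.4 CPM in the WT libraries and 57.2, 57.6 and 55.7 CPM in the Yme1l-/- libraries, without overlap, and a log2 fold change of 0.24 ± 0.05 (edgeR adjusted p = 0.001). Mtx3 had 23.5, 25.6 and 28.1 CPM in the WT libraries and 26.4, 32.4 and 32.0 CPM in the Yme1l-/- libraries. These ranges overlapped, and its 0.24 ± 0.09 (edgeR adjusted p = 0.035) was lost under 5 of 14 alternatives, 4 of which left out a library (replicate 1 or 2 of WT, replicate 2 or 3 of Yme1l-/- cells, log2 fold changes of 0.17 to 0.33 with 1 library left out). The fifth was the removal of the chromosome medians, where Mtx3 was at 0.16 (edgeR adjusted p = 0.15), beside 0.08 for chromosome 13. Mtx1 stood at 40.6 to 43.1 CPM in WT and 39.2 to 45.9 CPM in Yme1l-/- cells, a log2 fold change of 0.00 ± 0.07 (edgeR adjusted p = 0.98). Exons of Thbs3 overlap Mtx1 on the other strand, and Thbs3 had 0.75 ± 0.07.

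Timmdc1 is related to the TIM17 family by sequence and is known as an assembly factor of respiratory complex I. It stood at 27.6, 26.1 and 26.1 CPM in the WT libraries and 20.5, 21.0 and 19.2 CPM in the Yme1l-/- libraries. Its Yme1l-/- libraries were all below WT, and the log2 fold change was -0.39 ± 0.06 (edgeR adjusted p = 0.00015), almost unchanged at -0.37 relative to chromosome 16. Its promoter is shown because it fell while holding the motif found in Tomm22, which rose (RefSeq, GRCm38.p6, chr16:38522664-38522913, minus strand, matches to CCGGAAG or its reverse complement in capitals).
Timmdc1: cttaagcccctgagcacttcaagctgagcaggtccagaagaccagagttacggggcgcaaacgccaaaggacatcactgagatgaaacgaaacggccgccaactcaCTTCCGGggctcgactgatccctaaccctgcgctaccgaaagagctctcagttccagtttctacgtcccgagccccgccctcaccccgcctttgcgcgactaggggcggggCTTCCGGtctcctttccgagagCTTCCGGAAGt
The matches began at positions -144, -33, -11 and -8 from the RefSeq start, and the last 2 form CTTCCGGAAG as in Tomm22. The motif thus stood in the same form in a member that rose and in a member that fell.

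Paralogous members were set against each other as the log2 ratio of their CPM within each library, a measure in which library size cancels, as does gene length in the difference between genotypes. There were 6 pairs, and an exact two-sided permutation test of 3 against 3 libraries cannot give a p under 0.1. The log2 ratio of Dnajc15 to Dnajc19 was -0.91, -0.64 and -0.61 in the WT and -2.41, -2.01 and -2.34 in the Yme1l-/- libraries. The groups lay far apart. The mean went from -0.72 ± 0.17 to -2.25 ± 0.21 (SD, n = 3), a difference of -1.54 that left the ratio at 0.345 of its WT value (exact permutation p = 0.1, adjusted over the 6 pairs 0.3).

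The ratio of Timm10 to Timm10b also separated the genotypes. It was 0.76, 0.91 and 0.65 in WT and 0.54, 0.30 and 0.37 in Yme1l-/- libraries, a difference of -0.37 (exact permutation p = 0.1, adjusted 0.3). The other 4 pairs overlapped between genotypes. Timm17a to Timm17b differed by -0.06 (exact permutation p = 0.3, adjusted 0.45), from 1.43 ± 0.07 to 1.37 ± 0.08 (SD, n = 3). The differences were 0.10 for Timm8a1 to Timm8b, -0.08 for Tomm40 to Tomm40l and -0.23 for Mtx1 to Mtx3 (exact permutation p = 0.4, 0.5 and 0.3, adjusted 0.48, 0.5 and 0.45). With 1 library left out they ran from 0.02 to 0.16, from -0.18 to -0.02 and from -0.40 to -0.14, and that of Timm17a to Timm17b from -0.11 to -0.03. With the chromosome medians removed they were -0.05, -0.22 and -0.03, and that of Timm17a to Timm17b was -0.12.

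**Figure D4:**
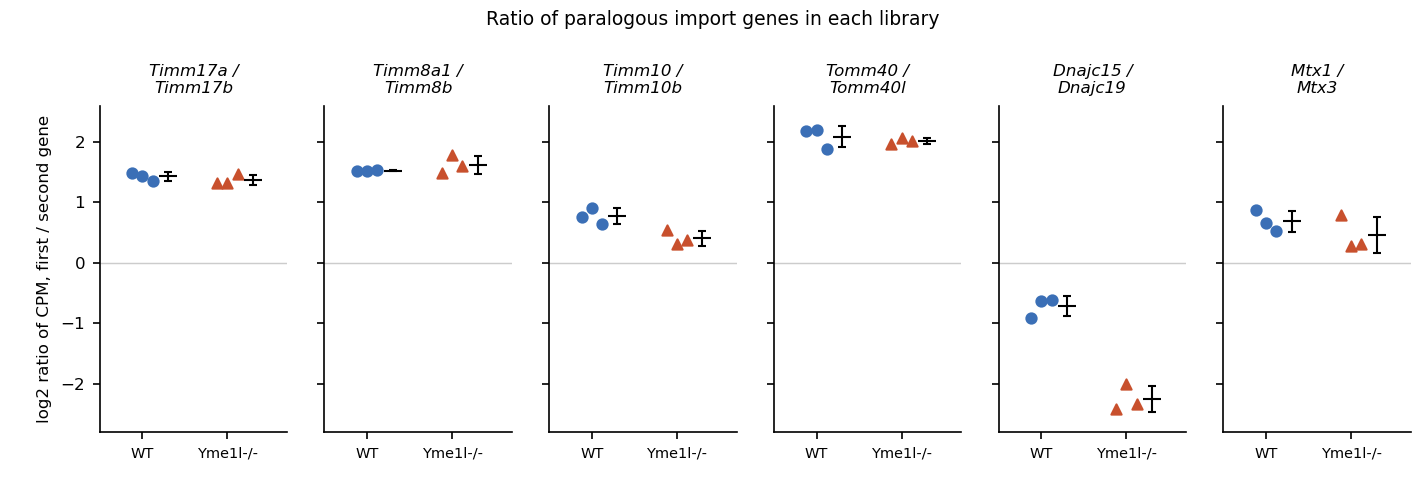
Log2 ratio of CPM of each pair of paralogous members in 3 WT (circles) and 3 Yme1l-/- libraries (triangles), with the mean and SD. The ratio of Dnajc15 to Dnajc19 drops from about -0.72 to -2.25, that of Timm10 to Timm10b from 0.77 to 0.41, and the other 4 overlap.

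Of 14 partners of the import complexes 6 rose, 4 fell and 4 were not called, with a median log2 fold change of 0.01. The 10 called made 71.4%, near the share of all tested loci. With the chromosome medians removed 6 were higher and 3 lower, and 8 of the 10 calls were kept. Hspa9, the Hsp70 of the motor, had 0.02 ± 0.05 (edgeR adjusted p = 0.68). It is the chaperone that DNAJC19 and DNAJC15 serve, and relative to chromosome 18, whose median was -0.21, it was called higher, at 0.23. Grpel2, a nucleotide exchange factor of that chaperone, fell by 0.75 ± 0.06 on the log2 scale, and Immp2l, a peptidase of the inner membrane, had -1.33 ± 0.17 (edgeR adjusted p = 7.4e-07 and 3.3e-05). Xpnpep3, an aminopeptidase, rose by 1.02 ± 0.06 and Samm50, the core of the beta-barrel sorting machinery that the metaxins join, by 0.80 ± 0.04 (edgeR adjusted p = 7.4e-08 and 3.7e-08). Both lie on chromosome 15, with Tomm22, and relative to its median Xpnpep3 was at 0.43 and Samm50 at 0.21.

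Of 8 cytosolic chaperones that deliver precursors 2 rose, 1 fell and 5 were not called, with a median log2 fold change of 0.08. The 3 called made 37.5%, beside 67.7% of all tested loci. Ubqln1 and Stip1 rose by 0.17 ± 0.05 and 0.16 ± 0.05 (edgeR adjusted p = 0.0053 and 0.02). Both calls were lost once the chromosome medians were removed, at 0.09 and 0.04, and Hspa8 (0.46), Hsp90aa1 (0.25) and Ubqln2 (0.30) were then called higher. Dnaja2, a J protein of cytosolic Hsp70, was the only one that fell, with -0.54 ± 0.05 (edgeR adjusted p = 1.3e-06), and was still lower, at -0.22, relative to chromosome 8.

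Per length, in the authors' combined FPKM, the members ran from 4.94 for Mtx3 to 199 for Timm13 in WT cells. Timm13, Tomm6, Tomm22 and Tomm20 were the highest 4 in both genotypes, with Tomm22 first in Yme1l-/- cells. The lowest were Mtx3, Mipep and Dnajc15 in both, and Dnajc15 was last in Yme1l-/- cells, at 5.14. In all 24 called members the FPKM difference had the direction of the CPM difference, and in 9 of 11 uncalled ones, Tomm20 and Timm17b being the other 2. FPKM has 1 value per genotype, so it has no replicate error.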

How the data were processed

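Poly(A) RNA libraries, made with a stranded kit, were read in 6 cultures. Per the labels and the study's methods, the authors mapped reads to mouse GRCm38 with HISAT2 2.0.4, assembled transcripts with StringTie 1.3.3 and compared genotypes with Cuffdiff 2.2.1. They deposited raw fragment counts per assembled locus, and a table of FPKM with 1 combined value per genotype, whose fold changes, p-values and q-values were not used. An assembled locus can hold several genes (635 did). How fragments of near-identical copies were shared is not given in the sources used here.

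Counts were tested with edgeR 4.0.16 (R 4.3.3), using TMM scaling, filterByExpr with a minimum count of 10, and a robust quasi-likelihood fit of the 3 WT against the 3 Yme1l-/- cultures, two-sided, with Benjamini-Hochberg adjustment over 13867 loci. The SE is the log2 fold change over the square root of F. CPM used TMM-scaled library sizes, with a prior count of 2 in the paralogue ratios. The script was tested on simulated data. Chromosome medians were removed as offsets per chromosome. Alternatives were RLE and upper-quartile scaling, DESeq2 1.42.0, other count filters, loci holding a single gene, a replicate block, each library left out and, added after the data were seen, both replicate 1 libraries left out. Near-identical copies (at least 95% identity over 200 bases) were found with BLAST+ 2.17.0. Gene coordinates came from the GENCODE annotation of GRCm38 and promoter windows from RefSeq (32 of 35 members matched). The deposited libraries all differed by more than sampling noise.

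The members, the role groups, the lists of partners and markers and the motifs were chosen with earlier results of these data known. Named are all 35 members, Yme1l1 and, in each of the 3 partner lists, the 2 highest and 2 lowest called genes. Hspa9, Hspa8, Hsp90aa1, Ubqln2, Chchd3, Ndufb7 and the neighbours of members were named after their values were seen. So were genes of the marker lists (Krt19, Map2, Thy1, Kdr, Cd68, Des, Adgre1, Cd3e, Myog).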

Additional observations from a re-analysis of the deposited data

How the results depend on the processing

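Of the 24 called members, 13 kept their call and direction under all 14 alternatives, and 17 did so in the 6 fits with 1 library left out. The counts of 14 higher and 10 lower ran from 11 to 13 and from 6 to 12 with 1 library left out, the fewest lower without replicate 3 of Yme1l-/- cells, and the members' median from -0.06 to 0.08. Over all loci, 8847 to 9406 were called in these 6 fits, against 9387 in the main fit. Upper-quartile scaling gave 6 lower. Removing the chromosome medians gave 5 lower and a median of 0.12, turned Timm17a (0.017), Timm8b (0.036), Timm9 (0.0054), Timm17b (0.14), Timm21 (0.11), Timm23 (0.082) and Tomm6 (-0.13), and moved the paralogue differences of Timm8a1 to Timm8b to -0.055, of Tomm40 to Tomm40l to -0.22 and of Mtx1 to Mtx3 to -0.028. The cause was not tested. Uncalled members near 0 turned sign elsewhere, Mtx1 with RLE scaling (-0.0028), DESeq2 (-0.0028) and no count filter (-0.0040), and Tomm40 with upper-quartile scaling (0.00092). With both replicate 1 libraries left out, Tomm40l was at -0.022, Tomm6 at -0.017, Timm10 at -0.0088 and Mtx1 at -0.046. With 1 library left out, Mtx1 ran from -0.072 to 0.043, Timm10 from -0.057 to 0.072, Tomm6 from -0.065 to 0.10, Tomm40l from -0.056 to 0.078 and Tomm40 from -0.14 to 0.026. Replicate numbers were not taken to pair the libraries, since over all tested loci the correlations of the deviations from the group means were 0.14, -0.09 and 0.05 for numbers 1 to 3, although the replicate 1 libraries were the highest for most members in both genotypes. A fit with the replicate number as a block called 9794 loci against 9387, with 14 members higher and 11 lower, and Tomm70a was the only member whose call changed. Under the block the SE of Tomm5 went from 0.10 to 0.044, of Timm50 from 0.070 to 0.040 and of Mtx3 from 0.089 to 0.058, with edgeR adjusted p of 0.00010, 0.00083 and 0.0028. In the paralogue differences the block leaves the mean as it was. Each member held 170 or more fragments in each library, and the members' SEs were 0.04 to 0.11 on the log2 scale.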
